A study of Mus musculus with 55 samples.

Results

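The genes examined here encode the proteins that hepatocytes secrete into plasma: albumin and other carriers, apolipoproteins, clotting and complement factors, serpins, alpha-macroglobulins and inter-alpha-trypsin inhibitor chains, and the major urinary proteins of mice. They were found by gene symbol, and 111 of the 4113 genes in either of the deposited RNA-seq tables met the rule. The Setd8-LKO + TCPOBOP table, with 3900 genes, held 101 of them, the WT + TCPOBOP table, with 719 genes, held 15, and 5 were in both. Each table holds only the genes that the authors had selected as changed in that comparison, so every count of changed genes given here describes direction and size among genes already chosen on the same libraries. Apoa1, Apob, the fibrinogen genes Fga, Fgb and Fgg, Plg, Serpinc1, Hamp and Hamp2 are in neither table and were not analysed here.

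RNA-seq was made from the livers of male C57Bl6 mice 45 to 50 days old in 3 groups: untreated wild type mice (WT, n = 5), wild type mice 24 h after a single injection of 3 mg/kg TCPOBOP (WT + TCPOBOP, n = 5), and Setd8-LKO mice given the same injection (Setd8-LKO + TCPOBOP, n = 4). TCPOBOP is an agonist of the nuclear receptor CAR that drives hepatocytes into the cell cycle. Setd8-LKO mice carry loxP sites on both sides of exon 7 of Setd8, the gene of the H4K20 monomethyltransferase, and Cre under the promoter of albumin, itself one of the genes examined, which limits the deletion to cells that use this promoter. Untreated Setd8-LKO livers were not analysed here, so in Setd8-LKO + TCPOBOP against WT the genotype and the injection cannot be told apart, and the labels call the controls untreated where the methods name a corn oil vehicle. The RNA came from whole liver, where fewer hepatocytes and less RNA per hepatocyte cannot be told apart. In the libraries labelled Setd8-LKO, Kmt5a, the gene of Setd8, had 1313 to 1465 normalized counts against 563 to 761 in WT, a count over all exons that does not read the deleted exon on its own, and the group is therefore named by its label. Liver nuclei of untreated WT and of Setd8-LKO + TCPOBOP mice were profiled for H3K27ac (3 and 3 samples), open chromatin by ATAC-seq (3 and 5), CTCF (4 and 2) and Smc3 (3 and 2) by peak lists, and for Lamin A/C (4 and 4) and H4K20me3 (2 and 2) by island lists, with 1 list per condition. The 4 Lamin A/C samples of WT carry replicate numbers 1 and 2, each given to 2 of them, so the number of distinct WT livers may be lower.

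Hepatocytes make most plasma proteins and release them through the secretory pathway into the blood, where they carry lipids, metals and hormones, clot, lyse microbes and restrain proteases. Their genes are switched on during liver maturation by liver-enriched transcription factors such as HNF1, HNF4 and C/EBP. Several are acute-phase genes, which hepatocytes raise or lower in inflammation, and the major urinary proteins are small pheromone carriers made in large amounts by the livers of male mice and passed into urine.

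Values are normalized counts, that is, raw counts multiplied by 1 factor per library and rounded by the authors. The factors were 1.03 to 1.25 in WT, 0.752 to 0.855 in Setd8-LKO + TCPOBOP and 1.09 to 1.39 in WT + TCPOBOP, and the 5 WT libraries carried the same factors in both tables. The counts summed over the listed genes were 5734065 to 12780869 per library in the Setd8-LKO + TCPOBOP table and 1389901 to 3706582 in the WT + TCPOBOP table, which is part of each library and not its depth. Libraries were sequenced in runs A (WT replicates 3, 4 and 5, Setd8-LKO + TCPOBOP replicate 4, WT + TCPOBOP replicates 1 to 3) and B (the others), and the members called below had the same sign in both runs. A gene was called lower or higher when its adjusted p was under 0.05 in edgeR (quasi-likelihood test), corrected by the Benjamini-Hochberg method over all 55450 annotated genes with the unlisted ones taken as unchanged, and its log2 fold change was at least 1 in size. All log2 fold changes below come from this fit and are given with their standard error (SE). The methods call the RNA-seq replicates biological, and p-values measure the spread between these libraries.

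Most of the plasma protein genes tested fell in Setd8-LKO + TCPOBOP. Of the 100 tested, 74 were called lower and 6 higher, where 34.5% of all genes tested in that table were lower and 50.7% were higher. Their median log2 fold change was -1.93, and that of all tested genes was 1.16. Libraries of the 2 groups did not overlap, with Setd8-LKO + TCPOBOP below WT, for 77 members, and with Setd8-LKO + TCPOBOP above WT for 6, where 35.4% and 51.4% of all tested genes did so. Together the members took 53.1 to 62.3% of the counts of listed genes in the WT libraries and 28.2, 27.8, 41 and 32.1% in replicates 1 to 4 of Setd8-LKO + TCPOBOP. In WT + TCPOBOP 6 of the 14 members tested were called higher and 2 lower under the authors' scaling, where 51.4% of all genes tested in that table were higher and 16.2% lower. Without WT replicate 4, 10 members were higher in WT + TCPOBOP. With DESeq2 size factors over the listed genes none was called higher in WT + TCPOBOP (2 at an unadjusted p under 0.05) and 3 were in Setd8-LKO + TCPOBOP. Without the Mup genes, which make up 41 of the members, 49 of the 59 members tested in Setd8-LKO + TCPOBOP were lower and 6 higher, with a median of -1.54.

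**Figure D1:**
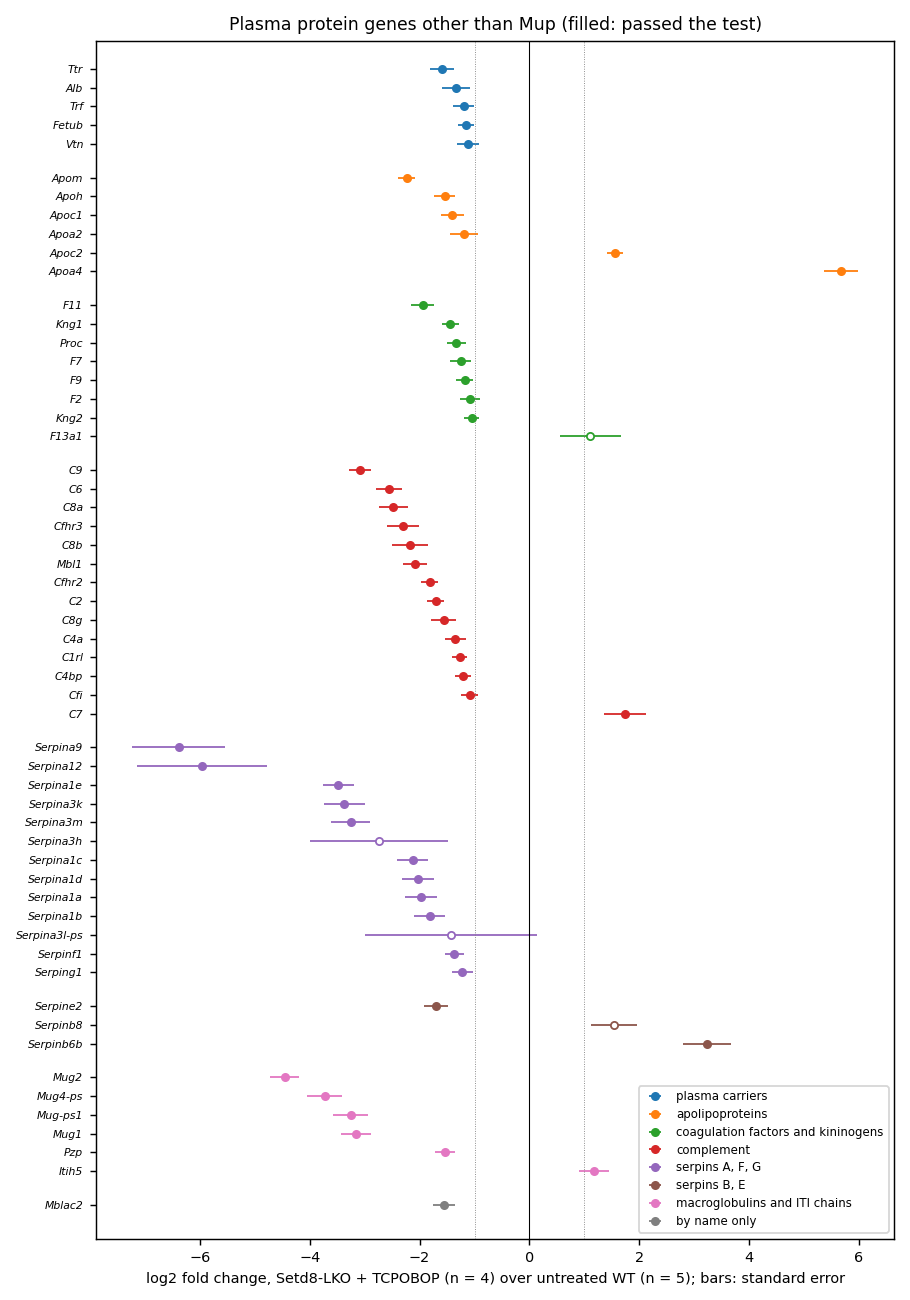
Log2 fold change of 56 plasma protein genes other than Mup in Setd8-LKO + TCPOBOP (n = 4) over untreated WT (n = 5), grouped by role; points are fitted values, bars their standard errors, filled points passed the test, and dotted lines mark a log2 change of 1 in size. Most points lie to the left of 0, and Apoa4 at 5.68 lies farthest to the right.

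Some markers of cell types were also listed for Setd8-LKO + TCPOBOP in these whole-liver libraries. Counts and sums below cover only the listed markers, which the authors had selected as changed, and the markers not listed were not analysed here. Of all genes tested in that table, 50.7% were higher and 34.5% lower. Of hepatocyte markers outside the rule, 10 of 12 listed genes were lower and 1 was higher, with a summed level of 395356 to 591367 normalized counts in WT and 292102 to 405015 in Setd8-LKO + TCPOBOP. The gene that was higher was Cyp3a11, a target of CAR that was also higher in WT + TCPOBOP, and without it, a choice made after its values were seen, the sums were 307287 to 471298 in WT and 97179 to 148068 in Setd8-LKO + TCPOBOP. Of 8 cholangiocyte and progenitor markers, 7 were listed and 6 were higher, with sums of 458 to 722 in WT and 2021 to 8648 in Setd8-LKO + TCPOBOP. All 6 listed of 9 stellate cell and fibroblast markers were higher, with sums of 2455 to 3922 and 6589 to 15506. Of 11 macrophage markers Marco and Cd14 were listed and both were higher, with sums of 112 to 332 and 587 to 863. Of 10 neutrophil and monocyte markers 4 were listed and 2 were higher (22 to 149 and 130 to 260), of 8 endothelial markers Vwf alone, which was higher (89 to 198 and 196 to 330), and of 10 lymphocyte markers 1, which was not called. The part of cell composition in the changes of the plasma protein genes was not tested.

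The promoters of 6 members are shown before their values, because these members combine a fall in RNA with a gain or loss of an H3K27ac or ATAC-seq peak at the start of the gene. The first 5 had the largest falls among such members that were called lower and had a RefSeq promoter, and Alb was added after its values were seen. Sequences are from RefSeq (GRCm38.p6), run 5′ to 3′ along the gene's strand from 250 bases before to 50 bases after the transcript start, and carry in capitals any match, on either strand, to 5 motifs. The core letters of a site for the homeodomain factor HNF1 were searched as GTTAAT. A site for the nuclear receptor HNF4 was searched as CAAAGTCCA and a site for the leucine zipper proteins of the C/EBP family as TTGCNNAA, where N stands for any base. The site of the stress-responsive AP-1 proteins was searched as TGANTCA, and the box bound by the general transcription machinery close to many tissue-specific starts as TATAAA.
Mup3 (chr4:62087268-62087567, minus strand): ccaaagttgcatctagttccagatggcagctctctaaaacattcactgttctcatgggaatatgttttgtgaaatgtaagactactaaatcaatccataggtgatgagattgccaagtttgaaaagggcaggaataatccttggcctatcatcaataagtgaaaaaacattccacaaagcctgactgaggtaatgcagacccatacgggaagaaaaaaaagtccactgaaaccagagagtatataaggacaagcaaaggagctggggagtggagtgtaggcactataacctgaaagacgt
Mug1 (chr6:121838291-121838590, plus strand): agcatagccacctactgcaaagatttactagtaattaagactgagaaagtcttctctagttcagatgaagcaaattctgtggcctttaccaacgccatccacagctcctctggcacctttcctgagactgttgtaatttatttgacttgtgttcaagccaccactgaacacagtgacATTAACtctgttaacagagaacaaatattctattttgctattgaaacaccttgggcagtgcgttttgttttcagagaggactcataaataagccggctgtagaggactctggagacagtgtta
C9 (chr15:6445096-6445395, plus strand): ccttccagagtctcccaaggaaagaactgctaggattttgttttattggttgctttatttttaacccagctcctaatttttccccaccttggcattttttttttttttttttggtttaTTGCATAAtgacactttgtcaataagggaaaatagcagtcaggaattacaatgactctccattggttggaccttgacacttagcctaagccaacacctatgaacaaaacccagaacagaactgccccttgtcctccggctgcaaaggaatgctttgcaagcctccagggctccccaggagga
Mup10 (chr4:60582106-60582405, minus strand): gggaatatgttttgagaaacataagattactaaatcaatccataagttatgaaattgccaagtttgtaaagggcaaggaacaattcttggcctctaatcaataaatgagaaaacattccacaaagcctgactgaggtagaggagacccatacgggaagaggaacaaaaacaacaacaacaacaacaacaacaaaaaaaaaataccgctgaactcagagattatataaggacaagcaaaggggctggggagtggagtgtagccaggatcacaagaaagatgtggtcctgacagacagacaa
C8a (chr4:104876349-104876648, minus strand): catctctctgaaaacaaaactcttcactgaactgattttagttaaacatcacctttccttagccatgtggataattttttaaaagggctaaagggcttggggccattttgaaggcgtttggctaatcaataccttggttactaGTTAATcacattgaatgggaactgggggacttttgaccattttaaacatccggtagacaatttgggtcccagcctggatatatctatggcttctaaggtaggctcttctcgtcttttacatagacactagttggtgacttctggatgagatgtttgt
Alb (chr5:90460620-90460919, plus strand): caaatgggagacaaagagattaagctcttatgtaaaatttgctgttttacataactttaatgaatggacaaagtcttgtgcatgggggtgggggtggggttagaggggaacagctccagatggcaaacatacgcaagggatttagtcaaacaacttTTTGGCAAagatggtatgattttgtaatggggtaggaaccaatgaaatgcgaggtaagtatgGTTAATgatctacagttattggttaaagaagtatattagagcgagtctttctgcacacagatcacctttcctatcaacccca
No motif was matched in the Mup3 and Mup10 windows. The HNF1 letters lie at -73 in Mug1, -107 in C8a and -32 in Alb, and the C/EBP letters at -132 in C9 and -94 in Alb, counted from the transcript start to the first letter of the match. Of the members, 65 had a promoter in the RefSeq table, and the HNF1 letters were in 20 of the 48 that are not Mup genes and in none of the 17 Mup promoters, where 7.1% of all 32851 promoters held them. For the C/EBP letters the count was 16 of 48, where 10.8% of all promoters held them, and for the AP-1 letters 7 of 48, against 7.81%. The TATA box letters were in 14 of the 65, against 13.6%, and the HNF4 letters in none, against 0.475%. A match describes letters in this window and not a bound site.

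Albumin and the other carriers were all lower in Setd8-LKO + TCPOBOP where they could be tested (5 of 5, median -1.20). Alb (ENSMUSG00000029368, chromosome 5 of GRCm38, 90460897 to 90476602, plus strand), which encodes the most abundant protein of plasma, was also the member with the highest level per length in WT, at 382144 ± 100921 normalized counts per kb (SD, n = 5), next to Mup7 at 371984 ± 144934, which lay within this spread. Its counts were 714846, 914210, 984219, 630727 and 1230909 in WT replicates 1 to 5 and 350296, 321973, 302416 and 437673 in Setd8-LKO + TCPOBOP replicates 1 to 4. Every treated library lay below every WT library, with a log2 fold change of -1.34 ± 0.26 and an adjusted p of 0.00671. Ttr, the transthyretin that carries thyroid hormone and retinol-binding protein, had 62917, 92097, 75884, 56968 and 91445 in WT and 22085, 21717, 24719 and 31484 in Setd8-LKO + TCPOBOP. It had the largest fall of this group (log2 fold change -1.6 ± 0.22, adjusted p = 0.000611), and the libraries were again apart. Trf, the iron carrier transferrin, had 254698, 272007, 290490, 286558 and 337950 in WT and 143914, 115584, 110453 and 132824 in Setd8-LKO + TCPOBOP (log2 fold change -1.2 ± 0.19, adjusted p = 0.00169). Of its transcript 50-mers, 59.4% also occur in transcripts of other genes, so its counts may be shared. Fetub, which encodes fetuin-B, a plasma inhibitor of astacin-type proteases, had 7646, 8032, 6280, 6339 and 6903 in WT and 3072, 2656, 3401 and 3500 in Setd8-LKO + TCPOBOP, with no overlap (log2 fold change -1.16 ± 0.15, adjusted p = 0.000425). Vtn, the adhesion protein vitronectin, changed by a log2 fold change of -1.12 ± 0.20 (adjusted p = 0.00389). A1bg went the other way at very low counts, with 0, 1, 2, 2 and 4 in WT and 65, 55, 8 and 19 in Setd8-LKO + TCPOBOP, and was not tested because it did not pass the filter on low counts.

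The apolipoproteins were the group in which members parted most. Apoa4 (ENSMUSG00000032080, chromosome 9 of GRCm38, 46240696 to 46243459, plus strand), an apolipoprotein of HDL and chylomicrons that in mice is made by intestine and liver, had 1402, 1989, 1245, 1904 and 1122 in WT and 108639, 84980, 48901 and 71878 in Setd8-LKO + TCPOBOP. The lowest treated library stood far above the highest WT library, the log2 fold change was 5.68 ± 0.31 (51.3-fold, adjusted p = 2.11e-06), and it was the largest rise of any member. Within run A the log2 ratio of means was 5.66 and within run B 5.57. Apoc2, the cofactor of lipoprotein lipase, also rose, from 2676, 2509, 2345, 2344 and 2342 in WT to 7692, 7472, 5914 and 7818, by 1.56 ± 0.14 on the log2 scale (adjusted p = 3.17e-05). With DESeq2 size factors over the listed genes, which lowered the median of all genes in that table by 0.82, its value was 0.73 and it was not called. In addition, 78.3% of its 50-mers also occur in 1 other gene.

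The other 4 apolipoproteins listed fell. Apom, which carries sphingosine 1-phosphate on HDL, had 3907, 4289, 3629, 3437 and 3855 in WT and 779, 781, 964 and 711 in Setd8-LKO + TCPOBOP (log2 fold change -2.24 ± 0.15, adjusted p = 6.3e-06). The treated libraries lay in a narrow band below all WT libraries. Apoh, beta-2-glycoprotein I, had 24520, 31401, 26599, 22411 and 29111 in WT and 7832, 7337, 10745 and 10850 in Setd8-LKO + TCPOBOP (log2 fold change -1.54 ± 0.19, adjusted p = 0.000321). Apoc1, a small apolipoprotein of VLDL and HDL, had 34915, 46409, 30580, 24944 and 35214 in WT and 11574, 11749, 12426 and 16216 in Setd8-LKO + TCPOBOP (log2 fold change -1.41 ± 0.21, adjusted p = 0.00126). Apoa2, a main protein of HDL and the apolipoprotein with the highest level per length, had 74907, 102761, 48729, 49728 and 57264 in WT and 24437, 25509, 31905 and 35184 in Setd8-LKO + TCPOBOP. Its groups were apart and its log2 fold change was -1.19 ± 0.26 (adjusted p = 0.0158), but the call was lost without WT replicate 2 (-0.98), and without Setd8-LKO + TCPOBOP replicate 1 (adjusted p = 0.0637) or 2 (0.0658). Summed over the 6 genes, the level was 104768 to 189358 in WT and 110855 to 160953 in Setd8-LKO + TCPOBOP, so the total overlapped although each gene moved.

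Coagulation factors and kininogens fell by amounts close to that of albumin. Of 8 members tested, 7 were lower, none was called higher and the median was -1.22. F11 (ENSMUSG00000031645, chromosome 8 of GRCm38, 45241174 to 45262031, minus strand), the zymogen factor XI of the intrinsic pathway, had 2171, 1721, 2071, 1677 and 2242 in WT and 420, 366, 658 and 622 in Setd8-LKO + TCPOBOP. It had the largest fall of the group (log2 fold change -1.94 ± 0.21, adjusted p = 0.000121). Kng1, which encodes the kininogen that binds factor XI and releases bradykinin, had 37708, 37719, 35152, 33378 and 34888 in WT and 14387, 12543, 12543 and 13384 in Setd8-LKO + TCPOBOP. The spread among treated libraries was small and the log2 fold change was -1.44 ± 0.15 (adjusted p = 9.26e-05). Proc, the anticoagulant protein C, had 8224, 9855, 6594, 6448 and 7183 in WT and 2591, 2679, 3308 and 3597 in Setd8-LKO + TCPOBOP (log2 fold change -1.33 ± 0.18, adjusted p = 0.00059). F7, which starts clotting with tissue factor, had 2241, 2316, 1857, 2190 and 2031 in WT and 664, 719, 1206 and 980 in Setd8-LKO + TCPOBOP (log2 fold change -1.25 ± 0.19, adjusted p = 0.00135). F2, the gene of prothrombin, had 31195, 37044, 28861, 27454 and 29691 in WT and 12992, 12349, 17705 and 15408 in Setd8-LKO + TCPOBOP (log2 fold change -1.08 ± 0.18, adjusted p = 0.00222). The vitamin K-dependent factors F2, F7, F9 and Proc thus lay between -1.08 and -1.33, with no overlap of libraries in any of them. Kng2, a second kininogen gene, fell by 1.05 on the log2 scale and was not called without Setd8-LKO + TCPOBOP replicate 2. F13a1, the A chain of factor XIII, which is made by macrophages and platelets rather than hepatocytes, had 4, 1, 6, 17 and 10 in WT and 21, 27, 8 and 13 in Setd8-LKO + TCPOBOP, groups that overlapped (log2 fold change 1.11 ± 0.55, adjusted p = 1).

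Complement genes fell further. Of 16 tested, 15 were lower and 1 was higher, with a median of -1.77. The largest falls were in the membrane attack complex, the pore that C5b, C6, C7, C8 and C9 build on a target membrane. C9 (ENSMUSG00000022149, chromosome 15 of GRCm38, 6445327 to 6498751, plus strand), the unit that forms the ring of the pore, had 16039, 14212, 16478, 16153 and 16774 in WT and 1968, 1271, 2252 and 2025 in Setd8-LKO + TCPOBOP. The drop was 8.48-fold (log2 fold change -3.08 ± 0.20, adjusted p = 5.12e-06) and no libraries overlapped. C6 had 10421, 8976, 8791, 11262 and 7717 in WT and 1447, 1225, 2396 and 1330 in Setd8-LKO + TCPOBOP (log2 fold change -2.56 ± 0.23, adjusted p = 3.96e-05). C8a, the alpha chain of C8, had 16752, 14129, 16956, 19163 and 14234 in WT and 2352, 2025, 4668 and 2571 in Setd8-LKO + TCPOBOP (log2 fold change -2.48 ± 0.26, adjusted p = 9.91e-05), and its neighbour C8b, the beta chain, and C8g, the gamma chain, had log2 fold changes of -2.17 and -1.56. Replicate 3 was the highest treated library for C6, C8a, C8b and C9.

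C7 was the member of this complex that rose. It had 34, 8, 28, 23 and 32 in WT and 115, 93, 76 and 50 in Setd8-LKO + TCPOBOP, and per length it stood at 9.34 normalized counts per kb in WT where C6 stood at 2653. Its log2 fold change was 1.74 ± 0.38 (adjusted p = 0.015), but the call was lost without Setd8-LKO + TCPOBOP replicate 1 (adjusted p = 0.0595) or 2 (0.0504), with run as a term (0.0727) and with DESeq2 size factors (0.393). C7 lies beside C6 on chromosome 15, where C6 starts at 4727175 and C7 ends at 5063740.

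Regulators and recognition proteins of complement fell too. Cfhr2, a factor H-related protein and, among the complement members of this table, the one with the highest level per length beside C9, had 11412, 12006, 12743, 10904 and 13713 in WT and 3270, 2872, 3927 and 3674 in Setd8-LKO + TCPOBOP (log2 fold change -1.82 ± 0.16, adjusted p = 2.76e-05). Cfhr3, annotated as a pseudogene, had 708, 546, 1046, 958 and 875 in WT and 112, 117, 242 and 201 in Setd8-LKO + TCPOBOP (log2 fold change -2.3 ± 0.29, adjusted p = 0.00035). The log2 fold change was -1.09 for Cfi, the protease that cleaves C3b. Mbl1, a mannose-binding lectin, fell as well (log2 fold change -2.08 ± 0.22, adjusted p = 9.55e-05). C2, C4a, C1rl and C4bp had log2 fold changes of -1.71, -1.35, -1.27 and -1.21, where C4bp was placed in this group by its family, and C2 and C4a share 38.7% and 30.6% of their 50-mers with another gene. Mblac2 matched the rule by name only and is no lectin, and it had 185, 168, 234, 252 and 267 in WT and 77, 82, 72 and 68 in Setd8-LKO + TCPOBOP (log2 fold change -1.56 ± 0.20, adjusted p = 0.000374).

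Serpins of clades A, F and G, the protease inhibitors and hormone carriers of plasma, included the largest falls outside the Mup genes. Of 13 tested, 11 were lower, none was higher and the median was -2.13. Their summed level was 2106765 to 2783979 normalized counts in WT and 291407 to 648803 in Setd8-LKO + TCPOBOP. Serpina9 had 171, 286, 243, 50 and 44 in WT and 0, 4, 2 and 2 in Setd8-LKO + TCPOBOP, close to no counts (log2 fold change -6.39 ± 0.85, adjusted p = 0.000552). Its neighbour Serpina12, the adipokine vaspin, had 1208, 1379, 60, 806 and 78 in WT and 4, 8, 12 and 21 in Setd8-LKO + TCPOBOP. The WT libraries themselves spread widely, replicates 3 and 5 being low, and the log2 fold change of -5.97 ± 1.19 (adjusted p = 0.0147) was no longer called without Setd8-LKO + TCPOBOP replicate 1 (adjusted p = 0.0706), 2 (0.0729) or 3 (0.0774).

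The Serpina1 genes encode the mouse forms of alpha-1-antitrypsin, the inhibitor of neutrophil elastase, and lie together on chromosome 12 between 103728156 and 103958975. All 5 copies fell but not to the same degree. Serpina1e had 330068, 425813, 440556, 341740 and 430507 in WT and 21929, 29178, 47348 and 42704 in Setd8-LKO + TCPOBOP (log2 fold change -3.48 ± 0.29, adjusted p = 2.21e-05). Serpina1a had 314179, 393510, 324656, 285958 and 339940 in WT and 49498, 62195, 111266 and 113751 in Setd8-LKO + TCPOBOP (log2 fold change -1.98 ± 0.29, adjusted p = 0.000932). Serpina1b, with 577037, 716030, 618471, 525680 and 663115 in WT and 104770, 140135, 214952 and 242619 in Setd8-LKO + TCPOBOP, had the smallest fall of the 5 (-1.82 ± 0.28, adjusted p = 0.00141). Serpina1c, with 351478, 429807, 343942, 318768 and 358517 in WT and 47360, 61827, 111911 and 109305 in Setd8-LKO + TCPOBOP, had a log2 fold change of -2.13 ± 0.29 (adjusted p = 0.00062), and that of Serpina1d was -2.03. These copies share 29.5 to 74.2% of their 50-mers with other genes, so the authors' counting may have split their reads, and the difference between Serpina1e and the other copies was not tested.

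Serpina3k, 1 of the mouse counterparts of alpha-1-antichymotrypsin, had 224440, 243096, 205912, 196912 and 176246 in WT and 11509, 12335, 36598 and 20542 in Setd8-LKO + TCPOBOP, with replicate 3 the highest treated library (log2 fold change -3.37 ± 0.37, adjusted p = 0.000127). Serpina3m, whose annotated span starts at the same base, had a log2 fold change of -3.26. The pseudogenes Serpina3h and Serpina3l-ps were fitted below 0 (-2.74 and -1.43) with adjusted p of 0.89 and 1, and their WT libraries ranged from 24 to 1259 and from 17 to 3370. Serpinf1, which encodes PEDF, and Serping1, the C1 inhibitor, had log2 fold changes of -1.37 and -1.22, and both were called lower.

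Serpins of clades B and E act mostly in cells and tissue matrix and are not typical products of hepatocytes. Of 4 tested, 2 were higher and 1 was lower, at no more than 512 normalized counts in any library. Serpinb6b had 36, 26, 30, 44 and 13 in WT and 512, 301, 115 and 207 in Setd8-LKO + TCPOBOP (log2 fold change 3.23 ± 0.44, adjusted p = 0.000581), with replicate 1 the highest and replicate 3 the lowest of the treated libraries. Serpinb8 had 11, 31, 51, 28 and 72 in WT and 104, 87, 128 and 131 in Setd8-LKO + TCPOBOP, apart but not called (log2 fold change 1.54 ± 0.42, adjusted p = 0.0593). It was called without WT replicate 1 (adjusted p = 0.0471) or 5 (0.0154). Serpine2, protease nexin-1, fell from 126, 194, 192, 128 and 140 in WT to 56, 46, 45 and 43 in Setd8-LKO + TCPOBOP (-1.71 ± 0.22, adjusted p = 0.000377).

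The alpha-macroglobulins, large plasma proteins that trap proteases, fell strongly. Mug2, a murinoglobulin, had 26234, 23605, 22872, 13423 and 27352 in WT and 920, 875, 1361 and 971 in Setd8-LKO + TCPOBOP, a 22-fold drop (log2 fold change -4.46 ± 0.27, adjusted p = 4.17e-06). Mug1, its more abundant neighbour on chromosome 6, had 117622, 94232, 63179, 60746 and 67855 in WT and 8558, 7684, 11723 and 8098 in Setd8-LKO + TCPOBOP (log2 fold change -3.16 ± 0.27, adjusted p = 2.81e-05). The pseudogenes Mug4-ps, with 8950, 6185, 4837, 3455 and 4259 in WT and 409, 287, 557 and 411 in Setd8-LKO + TCPOBOP, and Mug-ps1, with 18616, 14772, 13995, 10518 and 15191 in WT and 1101, 958, 2530 and 1532 in Setd8-LKO + TCPOBOP, had log2 fold changes of -3.73 and -3.26. Between 26.5% and 50.5% of the 50-mers of these 4 genes occur in other genes. Pzp, the alpha-2-macroglobulin of the mouse, fell less, from 100130, 91466, 113840, 101897 and 110482 in WT to 35721, 31737, 43531 and 31253 in Setd8-LKO + TCPOBOP (-1.54 ± 0.18, adjusted p = 0.000225). Itih5, an inter-alpha-trypsin inhibitor chain that is not mainly a liver product, was higher, with 495, 294, 346, 326 and 347 in WT and 1035, 1059, 413 and 772 in Setd8-LKO + TCPOBOP. Its groups overlapped (log2 fold change 1.18 ± 0.27, adjusted p = 0.0196), and the call was lost without WT replicate 2, 3, 4 or 5 or without Setd8-LKO + TCPOBOP replicate 1 or 2 (adjusted p 0.0514 to 0.083) and with DESeq2 size factors (log2 fold change 0.29).

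The major urinary protein genes, 22 of them protein-coding and 19 annotated pseudogenes, lie together on chromosome 4 between 59956804 and 62150863. Fitted values of all 41 were below 0, with a median of -2.57, and 25 were called lower. Their summed level was 1774738 to 4427464 normalized counts in WT and 148178 to 1155828 in Setd8-LKO + TCPOBOP. Mup7, the Mup gene with the highest level per length, had 536899, 501722, 178682, 416110 and 287884 in WT and 5343, 2382, 45425 and 9602 in Setd8-LKO + TCPOBOP (log2 fold change -4.61 ± 0.88, adjusted p = 0.00758). Replicate 3 held several times more than the other treated libraries. Mup14 had 315396, 246698, 94323, 243686 and 175243 in WT and 2852, 2241, 27356 and 5439 in Setd8-LKO + TCPOBOP, with replicate 3 again the highest of the treated (log2 fold change -4.5 ± 0.83, adjusted p = 0.00632). Mup22 had 311372, 300138, 154271, 279052 and 197453 in WT and 20096, 15330, 97985 and 34901 in Setd8-LKO + TCPOBOP (log2 fold change -2.56 ± 0.53, adjusted p = 0.011, and 0.051 without Setd8-LKO + TCPOBOP replicate 4).

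Mup3 and Mup10, whose promoters are printed above, had log2 fold changes of -4.16 and -2.52. Mup3 had 183169, 219075, 114504, 138057 and 130707 in WT and 1800, 1296, 22439 and 9675 in Setd8-LKO + TCPOBOP. Mup10 had 175911, 159525, 78801, 132463 and 101029 in WT and 9487, 8731, 50910 and 21189 in Setd8-LKO + TCPOBOP. In both genes replicates 3 and 4 were the highest treated libraries and still lay below WT, and Mup10 lost its call without Setd8-LKO + TCPOBOP replicate 4. Mup4 fell the furthest, from 5810, 2874, 1468, 1277 and 2435 in WT to 1, 34, 166 and 7 in Setd8-LKO + TCPOBOP. Its log2 fold change of -5.73 ± 1.26 (adjusted p = 0.0278) was not called without WT replicate 5 (0.0582) or without Setd8-LKO + TCPOBOP replicate 2 (0.115). The pseudogene Mup-ps17 had 34372, 26179, 9672, 20089 and 15869 in WT and 121, 110, 2557 and 644 in Setd8-LKO + TCPOBOP (log2 fold change -4.63 ± 1.06, adjusted p = 0.0327), and lost its call when any 1 WT library, or Setd8-LKO + TCPOBOP replicate 1 or 4, was left out (0.0502 to 0.0876).

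Mup20 encodes darcin, the male pheromone that attracts females. It had 192233, 166928, 165320, 162817 and 181608 in WT, an even set of values, and 33796, 28678, 151990 and 81636 in Setd8-LKO + TCPOBOP. Replicates 3 and 4 were the highest treated libraries, and the gene was not called (log2 fold change -1.23 ± 0.44, adjusted p = 0.262) although no libraries overlapped. Without Setd8-LKO + TCPOBOP replicate 3 its log2 fold change was -1.86 and the adjusted p 0.00606. Mup genes are near-identical copies, with a median of 79.1% of 50-mers shared with other genes and over 50% in 33 of 41, so values of single copies are uncertain.

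**Figure D2:**
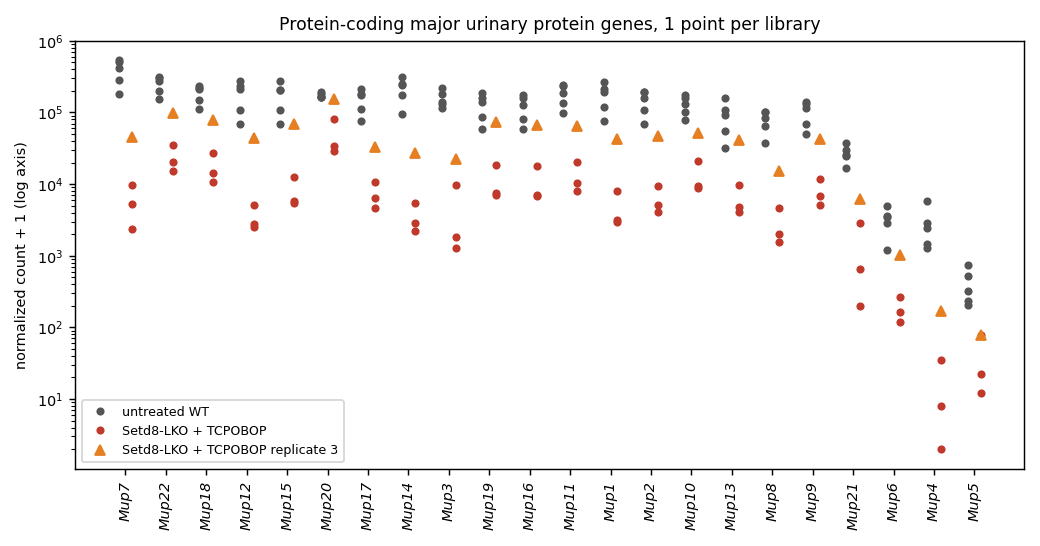
Normalized counts plus 1 on a log axis of the 22 protein-coding Mup genes, ordered by level per length in WT, with 1 point per library; grey points are untreated WT, red points Setd8-LKO + TCPOBOP and orange triangles its replicate 3. No treated library lies above replicate 3 for any gene shown, and for Mup20 its count of 151990 comes close to the lowest WT library at 162817.

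In WT + TCPOBOP 15 plasma protein genes were listed, no Mup gene among them. Libraries of the groups did not overlap, with WT + TCPOBOP above WT, for 8 of the 14 tested (60.8% of all genes tested in that table) and below WT for 3 (21.2%). The largest fitted values above 0 were those of Hp, Itih4, Hpx and C3, known acute-phase genes, on the authors' scaling. Hp (ENSMUSG00000031722, chromosome 8 of GRCm38, 109575128 to 109579172, minus strand), the haemoglobin-binding haptoglobin, had 29552, 34680, 41845, 137082 and 34826 in WT and 217213, 203638, 220569, 150868 and 196375 in WT + TCPOBOP. WT replicate 4 stood near the treated libraries, and the gene was not called (log2 fold change 1.83 ± 0.41, adjusted p = 0.103). Without this library its log2 fold change was 2.49 and the adjusted p 7.09e-05. Itih4, an acute-phase inter-alpha-trypsin inhibitor chain, had 30011, 29279, 31838, 65270 and 31041 in WT and 137329, 133224, 124775, 105979 and 129555 in WT + TCPOBOP (log2 fold change 1.75 ± 0.24, adjusted p = 0.00427). WT replicate 4 was again the highest untreated library. Hpx, the haem carrier haemopexin, had 56722, 64263, 97996, 157481 and 91486 in WT and 324259, 260604, 276342, 210570 and 274110 in WT + TCPOBOP. Its log2 fold change was 1.52 ± 0.27 (adjusted p = 0.0212), and the adjusted p was 0.0534 to 0.0723 without WT replicate 2, 3 or 5 or without WT + TCPOBOP replicate 1, 2, 3 or 5.

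C3, the central component of complement, had 154846, 146389, 148991, 192540 and 136929 in WT and 480191, 461626, 429451, 398819 and 452445 in WT + TCPOBOP, with narrow groups that were well apart (log2 fold change 1.51 ± 0.15, adjusted p = 0.000413). Under the authors' scaling Serpina6, the cortisol carrier transcortin, rose from 2842, 2901, 3064, 1446 and 4051 in WT to 9249, 7660, 7596, 8930 and 7021 in WT + TCPOBOP (1.5 ± 0.24, adjusted p = 0.00998). Hrg, histidine-rich glycoprotein, had 15902, 13880, 10797, 12978 and 10865 in WT and 36048, 30438, 34500, 21662 and 25053 in WT + TCPOBOP (log2 fold change 1.2 ± 0.19, adjusted p = 0.0102). Serpina3n, an acute-phase antichymotrypsin, had 5999, 6892, 4447, 18520 and 3997 in WT and 22198, 24101, 26504, 14079 and 20760 in WT + TCPOBOP. Its groups overlapped only through WT replicate 4 and WT + TCPOBOP replicate 4 and it was not called (log2 fold change 1.43 ± 0.40, adjusted p = 0.388), while without WT replicate 4 the values were 2.01 and 0.00187. Serpina10, the inhibitor of factor Xa that works with protein Z, had 3403, 3777, 4481, 9306 and 3109 in WT and 13996, 12817, 9793, 5280 and 8936 in WT + TCPOBOP (log2 fold change 1.08 ± 0.35, adjusted p = 0.802, and 1.46 and 0.0327 without WT replicate 4). Itih3 had 15129, 14928, 18496, 24590 and 15195 in WT and 39796, 44166, 37032, 24818 and 32302 in WT + TCPOBOP (log2 fold change 1.01 ± 0.21, adjusted p = 0.0539), and was called without WT replicate 4 (0.0127) or without WT + TCPOBOP replicate 4 (0.0343).

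Serpina7, thyroxine-binding globulin, was the largest fall under TCPOBOP. It had 237, 328, 398, 482 and 377 in WT and 16, 39, 35, 32 and 26 in WT + TCPOBOP, a 12.3-fold drop (log2 fold change -3.62 ± 0.30, adjusted p = 0.000113). The highest treated library lay far below the lowest WT library, and the call stood in every alternative that was run.

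Rises in WT + TCPOBOP depend on the scaling. With DESeq2 size factors or TMM factors over the listed genes the median of all genes in that table moved by -1.17 and -1.25, none of the 6 rises was called by edgeR, and the members split into 3 lower and 0 higher. At an unadjusted p under 0.05 there were 2 and 0 members higher. C3 then had a log2 fold change of 0.34 and 0.25, while Hrg (-0.06) and Apoa4 (-0.03) changed sign under TMM, and Itih3 (-0.16 and -0.25) and Serpina10 (-0.08 and -0.19) under both. The listed genes were selected for change, most of them upward, and such factors centre on them. Serpina7 and F11 kept their call under both.

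**Figure D3:**
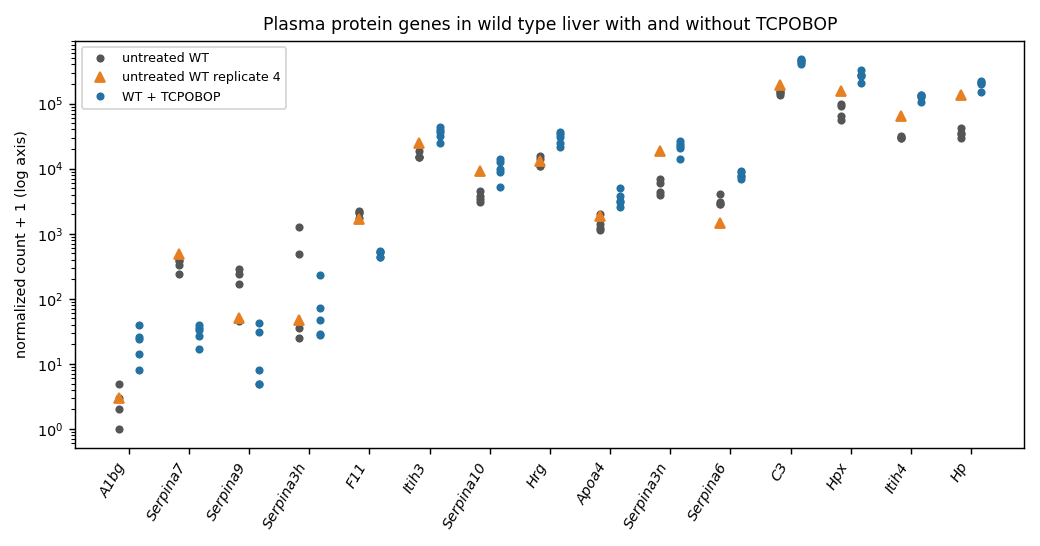
Normalized counts plus 1 on a log axis of the 15 plasma protein genes listed for WT + TCPOBOP, ordered by log2 fold change after A1bg, which was not tested; grey points and the orange triangle (replicate 4) are untreated WT and blue points WT + TCPOBOP, 1 point per library. The triangle lies between the other WT libraries and the treated ones for Hp, Itih4 and Hpx, and within the range of the treated ones for Serpina3n.

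The 5 genes listed in both comparisons share the untreated WT libraries, so their values are set side by side without a test between the treated groups. Apoa4 had 2609, 3853, 3043, 5078 and 3212 in WT + TCPOBOP replicates 1 to 5, a log2 fold change of 1.22 ± 0.23 (adjusted p = 0.0326), beside 5.68 in Setd8-LKO + TCPOBOP. The smaller rise was not called without WT replicate 1, 3 or 5 or without WT + TCPOBOP replicate 2, 3, 4 or 5 (adjusted p 0.0659 to 0.107). F11 had 546, 431, 442, 524 and 529 in WT + TCPOBOP, with a log2 fold change of -2.0 ± 0.15 (adjusted p = 7.71e-05) beside -1.94 in Setd8-LKO + TCPOBOP. Its treated libraries thus covered 431 to 546 and 366 to 658 normalized counts. Serpina9 had 7, 4, 4, 42 and 30 in WT + TCPOBOP, below all WT libraries but not called (log2 fold change -3.18 ± 0.76, adjusted p = 0.143), beside -6.39. A1bg had 25, 39, 13, 7 and 23 in WT + TCPOBOP and could not be tested in either comparison. Serpina3h had 27, 230, 28, 72 and 46 in WT + TCPOBOP and 51, 33, 108 and 27 in Setd8-LKO + TCPOBOP, where WT replicates 1 and 2 held 481 and 1259 and the other WT libraries 24 to 46, and it was called in neither.

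**Figure D4:**
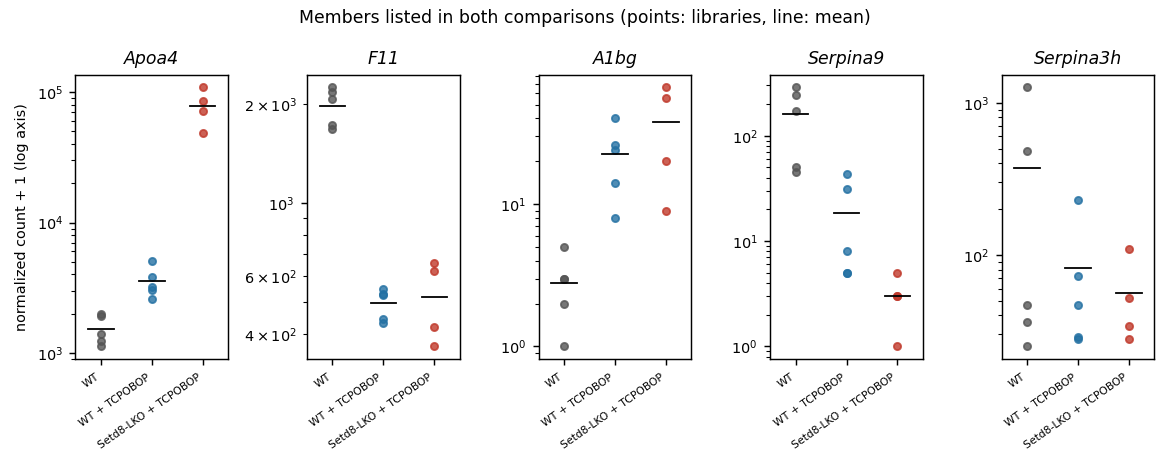
Normalized counts plus 1 on log axes of Apoa4, F11, A1bg, Serpina9 and Serpina3h in untreated WT (grey), WT + TCPOBOP (blue) and Setd8-LKO + TCPOBOP (red), 1 point per library with a line at the mean. Apoa4 rises from at most 1989 in WT to at least 48901 in Setd8-LKO + TCPOBOP, and F11 sits at no more than 658 in both treated groups.

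Other genes that bear on plasma proteins were counted from lists outside the rule. Of 27 liver-enriched transcription factors 5 were listed for Setd8-LKO + TCPOBOP and 4 were lower. Of all genes tested in that table, 34.5% were lower and 50.7% higher. Cebpa, which encodes C/EBP alpha, went from 8369 ± 2294 (SD, n = 5) in WT to 1772 ± 634 (n = 4), with a log2 fold change of -2.24 (SE 0.27, adjusted p = 0.000285), and Onecut1, the gene of HNF6, from 1623 ± 671 to 266 ± 98.9 (-2.61, SE 0.37, adjusted p = 0.000748). Hnf4a was not in the table and was not analysed here. Of 42 further plasma protein genes, 22 could be tested, with 13 lower and 5 higher, beside the same shares of all genes tested. The lower ones included Igfals, the acid-labile subunit that holds IGF-1 in plasma (-2.77, SE 0.28, adjusted p = 6.93e-05), and Klkb1, plasma prekallikrein (-2.27, SE 0.19, adjusted p = 2.53e-05). The higher ones included Lect2, a liver-made chemotactic protein (1.54, SE 0.28, adjusted p = 0.00446), and Clu, clusterin, a chaperone that also restrains the membrane attack complex (1.16, SE 0.15, adjusted p = 0.000433). Orm3, an orosomucoid gene (4.57, SE 1.05, adjusted p = 0.0353), and Apcs, serum amyloid P component (1.78, SE 0.45, adjusted p = 0.0461), were higher too. In WT + TCPOBOP 12 of these 42 genes were listed, with 7 higher and 1 lower under the authors' scaling. Of all genes tested in that table, 51.4% were higher and 16.2% lower. The summed level of the 12 was 31845 to 164984 in WT and 212480 to 415371 in WT + TCPOBOP. The higher ones included Apcs (3.35, SE 0.45, adjusted p = 0.00353) and the orosomucoid genes Orm1 (1.89, SE 0.34, adjusted p = 0.0224) and Orm2 (3.39, SE 0.63, adjusted p = 0.0303). Lect2 (1.52, SE 0.27, adjusted p = 0.0218) and Orm3 (4.92, SE 0.98, adjusted p = 0.0458) were higher in WT + TCPOBOP as well. Saa1 and Saa2, serum amyloid A genes, were fitted at 3.24 and 3.38 but not called, their SD in WT (19673 and 18592, n = 5) exceeding their mean (9375 and 8611).

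Peaks at gene starts were read from the deposited lists, within 1000 bp of the annotated start, and carry no replicate error because each list pools a condition. H3K27ac, a mark of active promoters and enhancers, was present at 58 of the 111 members in WT and at 57 in Setd8-LKO + TCPOBOP. Of the 60 members other than Mup in the Setd8-LKO + TCPOBOP table, 40 had it in WT (66.7%), 37 kept it, 3 lost it and 2 gained it. Among the other 3799 genes of that table the share was 54.9% in WT and 58.7% in Setd8-LKO + TCPOBOP. The 37 members that kept the peak had a median log2 fold change in RNA of -1.54, with 35 of them lower, out of 49 lower members other than Mup. Kept means a peak in both lists and not an equal height. In most of these 37 the fold enrichment was lower in Setd8-LKO + TCPOBOP, as at C6 (20.95 in WT and 5.33). In the others it was higher, as at Proc (10.33 and 15.5). Heights were not compared with those at other genes.

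The 3 members that lost H3K27ac were C9, Cfhr3 and Alb. At C9 the WT peak had a fold enrichment of 12.1 and the nearest peak in Setd8-LKO + TCPOBOP was 58112 bp from the start. At Alb the WT peak had 20.99, and the nearest in Setd8-LKO + TCPOBOP was 10919 bp away. Apoa4 kept its peak, with 9 in WT and 6.3 in Setd8-LKO + TCPOBOP, while its RNA rose 51.3-fold.

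ATAC-seq peaks, which mark open chromatin, lay at 42 of the 111 members in WT and at 32 in Setd8-LKO + TCPOBOP, and among the 60 members other than Mup at 30 (50%) and 23 (38.3%), with 9 lost and 2 gained. Among the other genes of the Setd8-LKO + TCPOBOP table the shares were 37.4% and 32%, with 299 of 1421 lost and 95 gained, and the whole list went from 27307 to 23386 peaks. Within 5000 bp of the start the 111 members had 63 and 62, net totals over losses and gains at different genes. At Serpina1a the nearest peak lay 28 bp from the start in WT and 29124 bp in Setd8-LKO + TCPOBOP, and at Kng2 252 and 8311 bp. At Mup17 it lay 67113 and 3428 bp away, and at Mup9 169767 and 3694 bp. How far gains at Mup copies offset losses at other members was not tested. The 9 losses were at Apoh, C8a, C8g, Cfhr3, Cfi, Kng2, Mug1, Serpina1a and Trf, all lower in RNA, with a median log2 fold change of -1.56, where the 21 members that kept the peak had -1.27 and the 27 tested with a peak in neither list had -1.71. Among the Mup genes the order was the reverse, with -3.00 for the 2 that kept the peak and -2.31 for the 3 that lost it. The start of Apoh in the deposited table, at which its peak was read, lies 51943 bp before its RefSeq start. At C8a the WT peak covered the start with a fold enrichment of 5.25 and the nearest in Setd8-LKO + TCPOBOP was 37433 bp away, while its H3K27ac peak stayed, at 18.4 and 8.50. At Mug1 the ATAC-seq peak of 5.43 was lost and H3K27ac went from 12.4 to 8.83. Serpina6, listed for WT + TCPOBOP only, lost a peak of 3.17.

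Within the Mup genes 9 of 41 had H3K27ac in each condition, with 6 kept, 3 lost (Mup12, Mup16 and Mup-ps20) and 3 gained, and 5 had an ATAC-seq peak in WT and 2 in Setd8-LKO + TCPOBOP. Mup3 kept H3K27ac (23.3 and 14.9) and lost its ATAC-seq peak of 3.29, and Mup10 gained an H3K27ac peak 905 bp from its start. The authors kept only reads with a mapping quality over 30, and how far near-identical copies lost reads by this was not tested.

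CTCF and Smc3, the boundary factor and a ring subunit of cohesin, were scarce at the plasma protein genes in both conditions. The lists grew from 5838 to 20905 CTCF peaks and from 13045 to 21615 Smc3 peaks. Among the 3799 other listed genes, the share with CTCF at the start went from 4.71% to 36% and with Smc3 from 14.6% to 53.8%. Among the 60 members other than Mup it went from 1.67% to 6.67% for CTCF and from 8.33% to 15% for Smc3, and among the 1213 other genes called lower it reached 34.6% and 49%. CTCF peaks were gained at Apoh, C2 and Mblac2, and Smc3 peaks at C8g, Serping1, C2, Mblac2 and Serpina1a. At Trf the Smc3 peak went from a fold enrichment of 5.29 to 43.2, and at Apoh from 8.97 to 109.6. For Apoh these peaks, too, are at the start given in the deposited table. The deposited and RefSeq starts were over 1000 bp apart in 9 of the 65 members with a RefSeq promoter, Serpina1b, Serpina1e and Serpine2 among them. Serpinb6b had both factors in both lists.

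**Figure D5:**
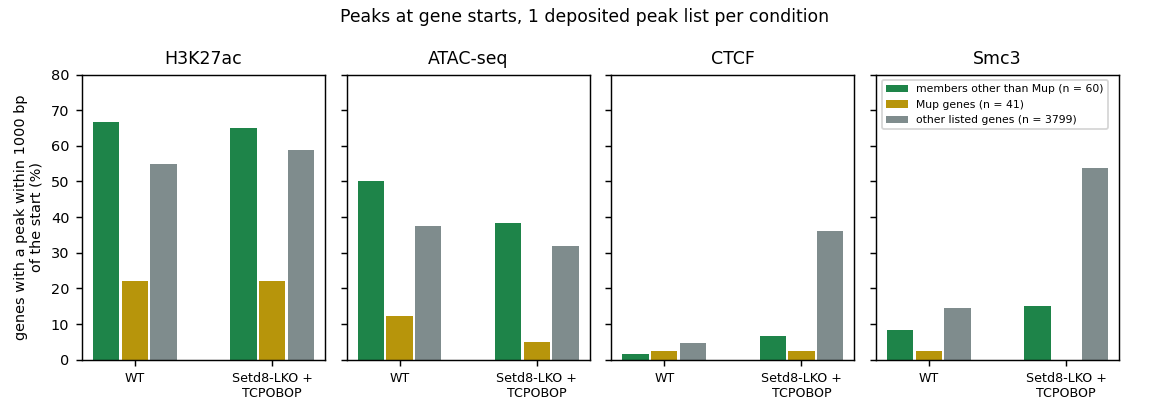
Share of genes with a peak within 1000 bp of the start in untreated WT and Setd8-LKO + TCPOBOP for H3K27ac, ATAC-seq, CTCF and Smc3; bars are 60 plasma protein genes other than Mup (green), 41 Mup genes (ochre) and 3799 other listed genes (grey), from 1 peak list per condition and so without error bars. The grey bars rise to 36% for CTCF and 53.8% for Smc3, and the green bars to 6.67% and 15%.

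Promoters of the plasma protein genes held few CG dinucleotides, with a median of 4 in the 300 bases of the 41 members other than Mup that had a RefSeq promoter, 2 in the Mup genes and 14 in the other listed genes. This split was chosen after the peak shares were seen. Among other listed genes with fewer than 5 CG, CTCF lay at 7.96% and Smc3 at 13% of starts in Setd8-LKO + TCPOBOP, and among those with 10 or more at 58.4% and 84.2%. The 23 members with fewer than 5 CG had 4.35% and 8.7%, which is 1 and 2 genes. The 16 members with 5 to 9 CG had 6.25% and 12.5%, again 1 and 2 genes, where other genes in that range had 18.6% and 29%. The other genes called lower had 6.88% and 11.5% with fewer than 5 CG and 15.6% and 24.2% with 5 to 9 CG. In WT the members with fewer than 5 CG had 4.35% with CTCF and 8.7% with Smc3, where other genes had 1.67% and 5.19%. With 5 to 9 CG the WT shares were 0% and 6.25%, where other genes had 4.64% and 11.8%. The differences between members and other genes were not tested.

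Broad domains touched few members and few of the other listed genes. Lamin A/C islands, which mark chromatin at the nuclear lamina, overlapped Serpine2 in WT only and Serpinb8 in both conditions. That is 1.8% of the 111 members in WT and 0.901% in Setd8-LKO + TCPOBOP, where other listed genes had 7.77% and 6.13%. H4K20me3 islands, a mark of silent chromatin, overlapped 1 member in WT (Mup21) and 6 in Setd8-LKO + TCPOBOP: Mup21, Mup3, Mup7, Mup-ps1, Serpina1c and C4a. Among other listed genes the share with H4K20me3 was 5.19% in WT and 6.42% in Setd8-LKO + TCPOBOP. For the 111 members it was 0.901% and 5.41%, the latter close to the share of other genes.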

How the data were processed

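RNA was sequenced in 14 libraries of mouse liver. According to the paper's methods and the submitters' processing notes, the authors aligned reads with HISAT2 to mm10, counted them over annotated genes and analysed them with metaseqR, and the deposited tables give per library raw counts and normalized counts (whole numbers, treated here as a score), with the authors' own comparison columns (p-values, FDR, fold changes), which were not used. A further 114 columns of transformed values were not used. Both tables are limited to genes that passed the authors' thresholds. Whether counting used strand is not given in the sources used here. For ChIP-seq and ATAC-seq the authors kept reads with a mapping quality over 30 and called peaks with MACS2 2.2.7.1, whose deposited lists give a fold enrichment (ratio) and a −log10 p per peak, and islands of Lamin A/C and H4K20me3 with SICER, 1 list per condition.

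Gene members and lists were chosen with earlier results of these data known. The quasi-likelihood test of edgeR 4.0.16 (R 4.3.3, robust fit) was applied to the raw counts, with the authors' factors as library scaling, genes passing filterByExpr at a minimum count of 10, each comparison fitted on its own libraries, and Benjamini-Hochberg adjustment over 55450 annotated genes. Adjusted p-values are therefore upper bounds. Named genes were, for each role, those with the largest change, those with the highest level per length, those against the majority of the role, and a fixed set that included Alb, Ttr, Trf, F2, Pzp, Serpina1a, Mup20, Hp, Hpx and C3. Other genes were named after their values were seen, and the values of some genes are not reported here. Levels per length divide normalized counts by the summed exon length of the gene in GENCODE M21. Replicate numbers of the groups did not pair the libraries: correlations of their deviations were -0.467 to 0.176.

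Peaks within 1000 bp of the annotated gene start were counted, and for islands any overlap with the gene. Promoters came from RefSeq (GRCm38.p6, the build of mm10). Shared transcript sequence was measured as exact 50-mers. The fit was tested on simulated counts. Alternatives were DESeq2 1.42.0 size factors and Wald test, TMM, no count filter, adjustment over listed genes only, run as a term, the replicate number as a block, and leaving out each library. For the peaks, 5000 bp, a −log10 p of at least 20 and the whole gene body were tried. Python 3.11.15, pandas 2.3.3 and scipy 1.17.1 were used for the rest.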

Additional observations from a re-analysis of the deposited data

Results flagged for a closer look

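In 9 of 117 groups of 4 or 5 libraries tested, 1 library stood apart from the others by Dixon's test at the 95% level, where chance alone gives about 1 in 20. Untreated WT replicate 4 was the library in 4 of the 9: it held 137082 normalized counts of Hp (29552 to 41845 in the other WT libraries), 18520 of Serpina3n (3997 to 6892), 9306 of Serpina10 (3109 to 4481) and 65270 of Itih4 (29279 to 31838). Setd8-LKO + TCPOBOP replicate 3 held 45425 of Mup7 (2382 to 9602 in the others) and 27356 of Mup14 (2241 to 5439). For Itih5 WT replicate 1 was the highest at 495 (294 to 347), and for C9 WT replicate 2 was the lowest at 14212 (16039 to 16774). For Serpina3h WT + TCPOBOP replicate 2 was the highest at 230 (27 to 72).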

How the results depend on the processing

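The count of members lower in Setd8-LKO + TCPOBOP was 51 to 88 over all alternatives and 62 to 82 when single libraries were left out, and no member tested changed sign there. The count higher was 3 with DESeq2 size factors and 4 to 7 otherwise. In WT + TCPOBOP the count lower was 2 or 3, and the count higher was 0 with DESeq2 size factors and 0 with TMM factors, 10 with adjustment over the listed genes only, and 4 to 10 when single libraries were left out. Signs reversed with TMM factors for Apoa4 (-0.03), Hrg (-0.06), Itih3 (-0.25) and Serpina10 (-0.19), and with DESeq2 size factors for Itih3 (-0.16) and Serpina10 (-0.08), all in WT + TCPOBOP. In WT + TCPOBOP the DESeq2 and TMM factors moved the median of all listed genes by -1.17 and -1.25. In Setd8-LKO + TCPOBOP the median moved by -0.82 with DESeq2 factors and by only -0.01 with TMM factors. With the replicate number as a block, though the numbers do not pair the libraries, 51 members were lower and 5 higher in Setd8-LKO + TCPOBOP, and 2 lower and 1 higher in WT + TCPOBOP.

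Within 5000 bp of the start, ATAC-seq peaks lay at 63 members in WT and at 62 in Setd8-LKO + TCPOBOP. These are net totals over losses at some members and gains at others. CTCF peaks lay at 4 (WT) and 11 (Setd8-LKO + TCPOBOP), and Smc3 peaks at 13 and 21. With the whole gene body inside an island, Lamin A/C held 1 member in WT and 0 in Setd8-LKO + TCPOBOP. Peak lists pool each condition and allow no test between replicates. Depth could be read only over the listed genes, and low members such as A1bg, F13a1 and C7 rest on few counts.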

Other observations

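Of 24 receptors and regulators of complement and coagulation outside the plasma protein genes, secreted ones such as Plat and Vwf among them, 9 were listed for Setd8-LKO + TCPOBOP. Of these 9, 7 were higher and 1 lower, where 50.7% of all genes tested in that table were higher and 34.5% lower. Summed over the listed genes only, the level was 405 to 538 normalized counts in WT and 682 to 1315 in Setd8-LKO + TCPOBOP. Plat, the tissue plasminogen activator, went from 6 ± 3.74 (SD, n = 5) to 129 ± 93.3 (n = 4), with a log2 fold change of 4.33 (SE 0.61, edgeR adjusted p = 0.000758). Plaur, the urokinase receptor, had a log2 fold change of 2.51 (SE 0.33, edgeR adjusted p = 0.000435) and Thbd, thrombomodulin, which turns thrombin towards protein C, 1.74 (SE 0.30, edgeR adjusted p = 0.00293). Cd59b, an inhibitor of the membrane attack complex on cells, was the lower gene, at -1.16 (SE 0.18, edgeR adjusted p = 0.00145). None of the 24 was listed for WT + TCPOBOP.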
